A study of Mus musculus with 6 samples.

Results

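The CDK inhibitors and D-type cyclins described here are 10 genes: Cdkn1a, Cdkn1b and Cdkn1c of the CIP/KIP family, Cdkn2a, Cdkn2b, Cdkn2c and Cdkn2d of the INK4 family, and Ccnd1, Ccnd2 and Ccnd3. They were chosen by gene symbol from the 22162 genes of the table and hold 11 rows, since the symbol Cdkn2d appears on 2. These genes act on the axis of p27Kip1, the CDK inhibitor whose allele is activated in the cells studied. Mouse skin fibroblasts (MSFs) were isolated from the dorsal skin of a FASST mouse on the FVB/N background and cultured in 10% serum at 3% oxygen and 5% carbon dioxide. Both groups carried the same alleles, a tamoxifen (TAM)-inducible Cre recombinase driven by the pro-alpha 2(I) collagen promoter and a p27Kip1 allele with an IRES-GFP in the ROSA26 locus behind a lox-stop-lox cassette. Poly(A) RNA was sequenced from 3 samples labelled TAM, given 10 µM TAM for 48 h and called senescent by the study, and from 3 samples labelled EtOH, given the ethanol vehicle and called non-senescent. The labels number the samples of each group from 1 to 3 and do not say that they came from separate cultures or animals. The study describes the MSF line as isolated from 1 animal, so the p-values measure the spread between these samples, which may be technical. EtOH was the only comparison group, and cells without the p27Kip1 allele that received TAM were not analysed here, so TAM itself and the activated allele cannot be told apart.

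CDK inhibitors and D-type cyclins set the pace of the G1 phase of the cell cycle. D-type cyclins bind and activate CDK4 and CDK6, which phosphorylate the retinoblastoma protein Rb and its relatives, and this releases E2F factors that switch on genes of S phase. INK4 proteins bind CDK4 and CDK6 and keep the cyclin from binding, whereas the CIP/KIP proteins p21Cip1, p27Kip1 and p57Kip2 bind complexes of cyclin and CDK and inhibit above all those with CDK2. High levels of p21Cip1 and p16Ink4a are widely used marks of senescent cells, D-type cyclins are early targets of mitogen signals, and p27Kip1 is controlled in large part through the stability of its protein, which RNA does not measure.

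The values are normalized counts, which the authors made from read counts per gene. Tests are on the difference in log2(normalized counts + 1), TAM minus EtOH, from limma's moderated model over the 11877 genes with at least 1 c.p.m., which is 16.2 normalized counts, in at least 3 of the 6 libraries. A gene was called where the adjusted p was under 0.05. None of the 9 genes of the set that passed this minimum was called, against 29 of all genes tested, or 0.244%, and a fit with the replicate block again gave 0 of 9, against 192 of all genes tested, or 1.62%. At an unadjusted p under 0.05 there were 2 of 9, Cdkn1a and Ccnd1, where 13.4% of all genes tested lay under that value. The same 2 genes were those whose groups did not overlap, both with the 3 TAM libraries above the 3 EtOH libraries. All genes tested held 20.6% without overlap, 9.19% with TAM above and 11.4% with TAM below.

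The 6 libraries summed to between 14952367 and 17314953 normalized counts. The number of reads is not stated, so counting errors could not be computed. Of 8 fibroblast markers, all reached 1 c.p.m. in at least 3 libraries, with sums between 1525425 and 1672642 normalized counts in EtOH and between 678769 and 1121067 in TAM. Most of these sums came from Col1a1, Col1a2 and Col3a1, which with Dcn and Lum were lower in every TAM library. Thy1 went the other way, with 571 to 2165 normalized counts in EtOH and 2246 to 4122 in TAM, and Vim and Pdgfra overlapped. Of the keratinocyte markers only Krt1, and of the macrophage and leukocyte markers only Emr1, were listed at 0 in every library. Keratinocyte markers summed to between 68.67 and 86.95 normalized counts in EtOH and between 60.25 and 83.04 in TAM. Among them Krt10 had 40.99 to 57.6 in EtOH and 41.88 to 59.12 in TAM. Trp63 had 24.85 to 25.78 in EtOH and at most 7.15 in TAM. Krt5 differed in the opposite direction, with at most 0.64 in EtOH and 2.96 to 13.39 in TAM. The part of these genes in the results was not tested. The leukocyte gene Ptprc reached at most 5.01 normalized counts. Leukocyte markers summed to between 203 and 527 normalized counts in EtOH and between 366 and 548 in TAM, with up to 352 for Cd68 in EtOH replicate 2 and up to 226 for Csf1r in TAM replicate 2. Lyz2, of macrophages, had 35.3 to 62.9 normalized counts in EtOH and 103 to 159 in TAM, without overlap. Csf1r had 73.4 to 75.7 in EtOH and 90.6 to 226 in TAM, also without overlap. Itgam did not overlap either but reached at most 3.11, whereas Cd14, Cd68 and Ptprc overlapped. What part these leukocyte genes had in the results was not tested. Of the other marker lists, 4 of 7 leukocyte genes, 2 of 8 keratinocyte, 1 of 6 endothelial, 3 of 7 melanocyte and Schwann and 1 of 5 skeletal muscle genes reached 1 c.p.m. in at least 3 libraries. Endothelial markers summed to between 85.9 and 241 normalized counts in EtOH and between 15.7 and 35.1 in TAM. Most of the EtOH sums came from Kdr, with 68.7 to 205 in EtOH and 4.84 to 14.0 in TAM. Pecam1, Tek and Cdh5 overlapped, and Emcn and Tie1 reached at most 0.79 and 1.66. TAM replicate 2 stood apart in Acta1, the skeletal muscle actin, with 1404 normalized counts. The 14 proliferation markers with values, among them Mki67 and Top2a, summed to 1551, 4463 and 2493 normalized counts in EtOH replicates 1, 2 and 3 and to 1705, 4736 and 1509 in the TAM replicates. Replicate 2 had the highest value of its group for 14 of these 14 genes in both groups, and its part in the results was not tested beyond the values given below without it.

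Sequences of the promoters are shown for endogenous Cdkn1b, which is not the ROSA26 allele that the model activates, and for both starts of Cdkn1a. They are also shown for both starts of Cdkn2a, whose single row counts a pair of different proteins. Each is the 250 bases before a transcription start, taken from the RefSeq promoters of mouse build GRCm38.p6, where 11 promoters of 7 of the 10 genes were found. Cdkn1c, Ccnd1 and Ccnd2 had no entry. Capitals mark matches, on either strand, to the GC box (GGGCGG), the CCAAT box (CCAAT), the E2F motif (TTTGGCGC, TTTCGCGC or TTTCCCGC), the FOXO motif (GTAAACA), the cyclic AMP response element (TGACGTCA) and the p53 half-site. No match says only that these letters are not in the window.

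Cdkn1b, chr6:134920151-134920400, plus strand: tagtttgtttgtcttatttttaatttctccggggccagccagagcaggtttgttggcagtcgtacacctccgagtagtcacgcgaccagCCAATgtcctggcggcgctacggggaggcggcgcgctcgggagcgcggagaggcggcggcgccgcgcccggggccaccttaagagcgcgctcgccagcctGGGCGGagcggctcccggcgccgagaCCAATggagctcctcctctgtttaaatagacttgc

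Cdkn1a, upstream start, chr17:29090729-29090978, plus strand: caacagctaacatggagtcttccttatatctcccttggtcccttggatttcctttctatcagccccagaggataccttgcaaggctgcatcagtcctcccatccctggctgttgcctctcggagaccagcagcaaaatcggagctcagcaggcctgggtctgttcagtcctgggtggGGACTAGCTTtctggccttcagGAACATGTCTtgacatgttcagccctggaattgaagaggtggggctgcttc

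Cdkn1a, downstream start, chr17:29093519-29093768, plus strand: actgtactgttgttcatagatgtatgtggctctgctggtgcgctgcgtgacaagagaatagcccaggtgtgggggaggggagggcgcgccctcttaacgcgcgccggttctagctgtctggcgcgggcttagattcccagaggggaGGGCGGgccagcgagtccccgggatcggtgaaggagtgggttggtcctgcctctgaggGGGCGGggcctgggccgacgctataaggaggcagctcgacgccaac

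Cdkn2a, outer start (p19Arf), chr4:89294620-89294869, minus strand: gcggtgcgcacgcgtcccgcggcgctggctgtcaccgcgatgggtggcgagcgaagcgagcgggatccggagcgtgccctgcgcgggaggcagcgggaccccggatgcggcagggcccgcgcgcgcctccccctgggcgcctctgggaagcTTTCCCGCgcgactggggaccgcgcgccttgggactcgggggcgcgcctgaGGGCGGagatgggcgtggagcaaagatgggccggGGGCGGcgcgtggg

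Cdkn2a, inner start (p16Ink4a), chr4:89282193-89282442, minus strand: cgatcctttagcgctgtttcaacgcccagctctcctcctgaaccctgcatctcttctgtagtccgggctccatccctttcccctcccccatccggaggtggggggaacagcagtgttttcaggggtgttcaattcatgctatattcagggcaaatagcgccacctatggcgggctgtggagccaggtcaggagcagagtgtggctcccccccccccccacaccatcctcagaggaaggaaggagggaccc

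The Cdkn1b promoter held 1 GC box, 61 bases before the start, and 2 CCAAT boxes, 161 and 35 bases before it. Among all 32851 RefSeq promoters of this length, 32.7% held a GC box and 33.8% a CCAAT box. The FOXO motif, named for factors known to activate Cdkn1b, was not found in this window, and 3.17% of all promoters held it. In the promoter of the upstream Cdkn1a start, 2 p53 half-sites began 73 and 51 bases before the start, and 0.259% of all promoters held at least 2. The promoter of the downstream Cdkn1a start held no p53 half-site and 2 GC boxes, 104 and 46 bases before the start. The table counts both starts in 1 row. The outer Cdkn2a promoter held 2 GC boxes and an E2F motif 99 bases before the start, the latter found in 1.53% of all promoters. The inner Cdkn2a promoter, 60.0% G and C against 78.4% in the outer one and a median of 52.4% over all promoters, held none of the 6 motifs. Of the 6 promoters not printed, that of Cdkn2b held the cyclic AMP response element, as did 1.55% of all promoters. No binding was measured in these cells, and the matches are descriptions of letters only.

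Cdkn1b is the endogenous gene of p27Kip1, and the p27Kip1 allele that TAM activates in this model is separate, in the ROSA26 locus. The endogenous gene lies on the plus strand at chr6:134870419-134875531 in mm9, with 2 exon blocks. The values were 1427, 3074 and 1853 normalized counts in EtOH replicates 1, 2 and 3 and 1699, 1519.9 and 1629.97 in TAM replicates 1, 2 and 3. Every TAM value lay inside the EtOH range, and the spread of TAM was the narrower, with 1616 ± 90.4 against 2118 ± 855 normalized counts (SD, n = 3 each). The log2 difference of −0.32 had a standard error of 0.28 (limma adjusted p = 0.677) and a 95% interval from −0.98 to 0.35. Cdkn1b was thus not called higher in the libraries labelled TAM, and EtOH and TAM throughout mean the libraries so labelled. The study's methods count reads on annotated genes. They do not say whether reads of the ROSA26 allele were counted on Cdkn1b. By pair, the log2 ratio of TAM to EtOH was 0.25, −1.02 and −0.19. EtOH replicate 2 set the group difference, which was −0.01 without it. Of the genes beside the ROSA26 locus, Setd5 differed by −0.36 (limma adjusted p = 0.619) and Thumpd3 by 0.06 (limma adjusted p = 0.957).

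**Figure D1:**
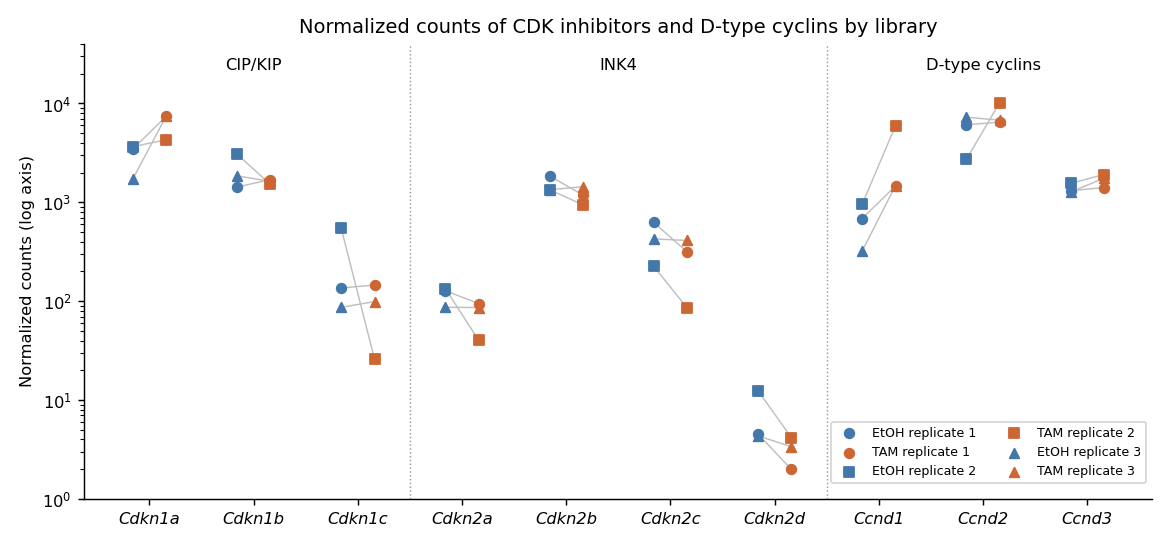
Normalized counts, on a log axis, of the 10 genes in each library, with circles, squares and triangles for replicates 1, 2 and 3, blue for EtOH and orange for TAM, and grey lines that join libraries with the same number. The 3 TAM points lie above the 3 EtOH points for Cdkn1a and Ccnd1, the TAM points of Cdkn1b fall between 1519.9 and 1699, and Cdkn2d lies below 16.2 normalized counts in every library.

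Cdkn1a encodes p21Cip1, an inhibitor that p53 is known to induce, and had the smallest unadjusted p of the set without the replicate block, where with the block Ccnd1 did. It lies on the plus strand at chr17:29227924-29237667 in mm9. The normalized counts were 3461, 3655 and 1718 in EtOH replicates 1, 2 and 3 and 7410, 4299.9 and 7452 in the TAM replicates. TAM replicate 2 was the lowest of its group and still above all of EtOH. Group means were 2945 ± 1066 in EtOH and 6387 ± 1808 normalized counts in TAM (SD, n = 3 each), a ratio of 2.17. The log2 difference was 1.15 with a standard error of 0.36 and a 95% interval from 0.30 to 2.00. This did not pass after adjustment over all genes (limma adjusted p = 0.254), and ranked by p Cdkn1a was number 692 of the 11877 genes tested. All 3 pairs were higher in TAM, with log2 ratios of 1.10, 0.23 and 2.12, so the second pair contributed least. Leaving out 1 library at a time gave log2 differences between 0.80 and 1.41, and none of these fits called the gene. Without TAM replicate 1 the unadjusted p was no longer under 0.05. Library weights, which count libraries far from their group less, gave 1.54 (limma adjusted p = 0.0297) and called Cdkn1a among 6.25% of all genes tested.

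Cdkn1c encodes p57Kip2, an imprinted inhibitor of the same family, and lies on the minus strand at chr7:150644255-150646955 in mm9. It had 136, 548 and 86.7 normalized counts in EtOH replicates 1, 2 and 3 and 146, 25.96 and 99.1 in the TAM replicates. The second replicates held both the highest and the lowest of the 6 values, while the other 4 lay between 86.7 and 146. The log2 difference of −1.35 had a standard error of 0.84 (limma adjusted p = 0.550). In the second pair the log2 ratio was −4.35, whereas pairs 1 and 3 gave 0.10 and 0.19.

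Within the CIP/KIP family, levels can be set side by side once normalized counts are divided by exon length. Per kilobase of exon, Cdkn1a made up 80.2%, 63.2% and 63.1% of the summed level of the 3 genes in EtOH replicates 1, 2 and 3, and 88.1%, 84.8% and 89.1% in the TAM replicates. The shares of Cdkn1b were 16.2%, 25.9% and 33.2% in EtOH and 9.87%, 14.6% and 9.52% in TAM. Cdkn1c held 3.63%, 10.9% and 3.66% in EtOH and 2.00%, 0.589% and 1.36% in TAM. Hence Cdkn1a RNA had the largest share per kilobase in all 6 libraries. Every TAM share of Cdkn1a lay above those of EtOH, and every TAM share of Cdkn1b and Cdkn1c lay below. Without division by length Cdkn1b had the larger share in EtOH replicate 3, with 50.7% against 47.0% for Cdkn1a. Shares of 1 sum are tied to each other, so these are a description of the same values and carry no test. The summed level itself overlapped between the groups, at 1941, 2603 and 1225 normalized counts per kilobase in EtOH and 3782, 2282 and 3762 in TAM.

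**Figure D2:**
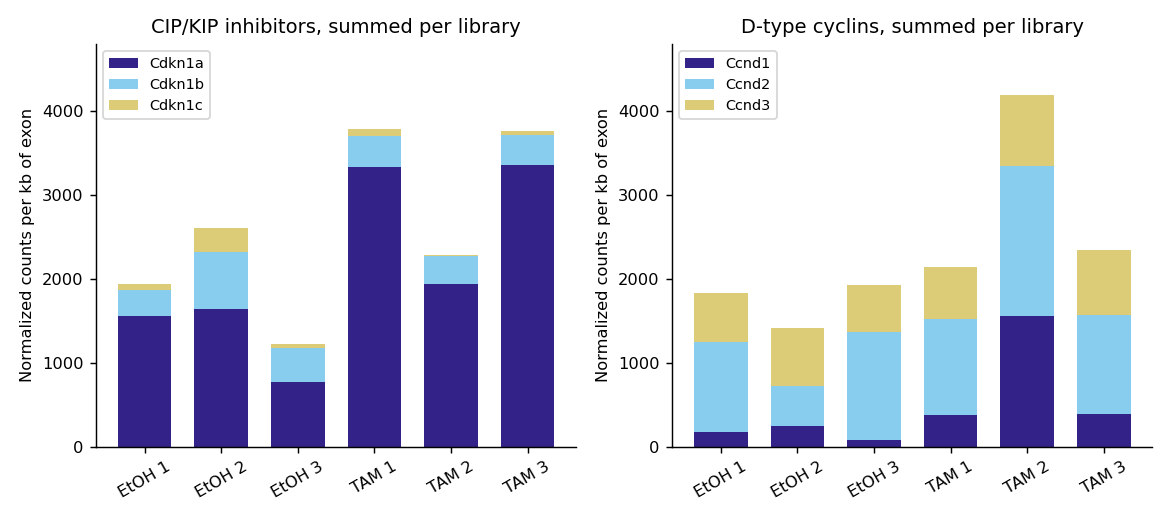
Bars from 0 give normalized counts per kilobase of exon, summed in each library over the CIP/KIP inhibitors (left) and the D-type cyclins (right), with 1 colour per gene. Cdkn1a, the lowest segment on the left, makes up 84.8% to 89.1% of the TAM bars, and on the right the bar of TAM replicate 2 reaches 4195.

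The INK4 inhibitors bind CDK4 and CDK6 directly. Cdkn2a, Cdkn2b and Cdkn2c, the 3 that were tested, had negative log2 differences between −0.81 and −0.35 and none was called, beside a median of −0.03 over all genes tested. Cdkn2a lies on the minus strand at chr4:88920377-88940557 in mm9 and makes p16Ink4a and, from a start 12427 bases upstream and another reading frame, p19Arf, which acts on p53 through Mdm2 and is no CDK inhibitor. Of its 1170 exon bases 643, or 55.0%, belong to both transcripts, so the single row does not say which one was measured. The values were 128, 134 and 86.8 normalized counts in EtOH replicates 1, 2 and 3 and 94.5, 40.2 and 86.4 in the TAM replicates. TAM replicate 2 was the lowest of the 6, and the other 5 values overlapped. The log2 difference of −0.71 had a standard error of 0.39 (limma adjusted p = 0.485), and without TAM replicate 2 it was −0.33.

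Cdkn2b encodes p15Ink4b, an inhibitor known to respond to TGF-beta, and lies beside Cdkn2a at chr4:88952198-88956941 in mm9, also on the minus strand. It was the most abundant INK4 gene per kilobase in every library, with 79.3% to 82.3% of the summed INK4 level in EtOH and 81.0% to 90.7% in TAM. Its normalized counts were 1847, 1343 and 1342 in EtOH replicates 1, 2 and 3 and 1188, 943 and 1439 in the TAM replicates. The groups overlapped, and the log2 difference of −0.35 had a standard error of 0.22 (limma adjusted p = 0.565).

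Cdkn2c encodes p18Ink4c and lies on the minus strand at chr4:109333481-109339794 in mm9. The normalized counts were 627, 225 and 427 in EtOH replicates 1, 2 and 3 and 315, 85.5 and 411 in the TAM replicates. Replicate 2 was the lowest of both groups, and every pair was lower in TAM, with log2 ratios of −0.99, −1.39 and −0.05. The log2 difference of −0.81 had a standard error of 0.63 without the block (limma adjusted p = 0.629) and of 0.30 with it (limma adjusted p = 0.267). With the block 3 of 9 members, Cdkn1a, Ccnd1 and Cdkn2c, had an unadjusted p under 0.05, where 17% of all genes tested did. Without TAM replicate 2 its log2 difference was −0.12.

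Cdkn2d encodes p19Ink4d and had the lowest counts of the set. Its row at chr9:21092907-21095653 on the minus strand of mm9 held 4.55, 12.45 and 4.35 normalized counts in EtOH replicates 1, 2 and 3 and 1.99, 4.18 and 3.37 in the TAM replicates. Each TAM value was below each EtOH value, although the smallest values above 0 in a library, between 0.36 and 0.89, show that counts this low stand for few reads. All of these are under the minimum of 16.2, so the gene was not tested with the others. In a fit of all genes without the minimum its log2 difference of −0.85 had a standard error of 0.48 (limma adjusted p = 0.673). The second row of the symbol, at chr9:123836860-123839608 on the plus strand, is Gm4694 in the mm9 annotation and was listed at 0 in all 6 libraries. The transcripts of both rows are 1271 bases long and 99.9% identical, with 1 mismatch, so reads from one fit the other and both rows are uncertain.

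**Figure D3:**
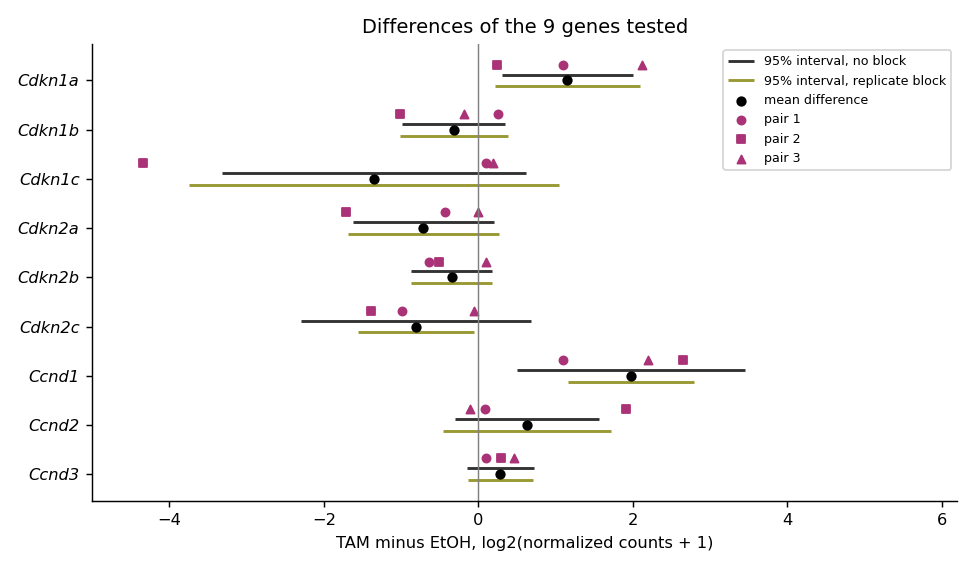
Log2 difference of the 9 genes tested, TAM minus EtOH on log2(normalized counts + 1), with black points for the means, horizontal lines for 95% intervals from limma without (dark) and with (olive) the replicate block, and purple marks for the ratio in each pair. Intervals of Cdkn1a and Ccnd1 lie above 0 in both fits, that of Cdkn2c lies below 0 only with the block, and the second pair of Cdkn1c is the farthest mark, at −4.35.

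Among the D-type cyclins all 3 log2 differences were positive, and none was called. Ccnd1, for cyclin D1, had the largest difference of the set. It lies on the minus strand at chr7:152115836-152125774 in mm9, and 21.3% of its exon bases overlap Oraov1 on the other strand. Its normalized counts were 686, 955 and 321 in EtOH replicates 1, 2 and 3 and 1464, 5964 and 1476 in the TAM replicates. TAM replicate 2 stood far above the other TAM libraries, and all 3 lay above EtOH. The log2 difference was 1.98 with a standard error of 0.63 and a 95% interval from 0.50 to 3.45 (limma adjusted p = 0.256).

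All pairs of Ccnd1 were higher in TAM, with log2 ratios of 1.09, 2.64 and 2.20. With the replicate block the standard error fell to 0.32, the 95% interval ran from 1.16 to 2.79, and Ccnd1 was number 249 of 11877 by p, which did not pass the threshold (limma adjusted p = 0.0648). Without TAM replicate 2 the log2 difference was 1.30 in the fit without the block. Leaving out both second replicates, a fit with the block, added after seeing the data, gave 1.64 for Ccnd1 (limma adjusted p = 0.0314) and 1.61 for Cdkn1a (limma adjusted p = 0.0309). Both were called there, in a fit on 4 libraries that called 7.78% of all genes tested. With library weights beside the block, likewise added, Cdkn1a, Ccnd1 and Ccnd3 were called, in a fit that called 36.3% of all genes.

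Ccnd2, for cyclin D2, was the most abundant D-type cyclin per kilobase of exon in 5 of the 6 libraries. The gene is on the minus strand at chr6:127075797-127101066 in mm9. It had 6098, 2716 and 7278 normalized counts in EtOH replicates 1, 2 and 3 and 6483, 10214 and 6763 in the TAM replicates. The second replicates held the lowest and the highest value, in the reverse order of Cdkn1c, and the other 4 lay between 6098 and 7278. The log2 difference of 0.63 had a standard error of 0.40 (limma adjusted p = 0.554), with pair ratios of 0.09, 1.91 and −0.11. Without EtOH replicate 2 it was 0.20, and without both second replicates, in the fit with the block, −0.01.

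Ccnd3, for cyclin D3, varied least of the 9 genes tested, with a standard error of 0.18. It lies on the plus strand at chr17:47642000-47736632 in mm9. There were 1315, 1556 and 1271 normalized counts in EtOH replicates 1, 2 and 3 and 1408, 1912 and 1750.37 in the TAM replicates. Replicate 1 of TAM fell inside the EtOH range and the other two above it. All pairs were higher in TAM, by 0.10, 0.30 and 0.46 on the log2 scale, and the difference was 0.29 (limma adjusted p = 0.565). Of its transcript 86.7% matches a pseudogene, Ccnd3-ps, at chr4:138900315-138902142 in mm9 with 95.5% identity, and 15.7% of its exon bases overlap Bysl on the other strand, so this row is uncertain. Apart from Cdkn2d and Ccnd3, none of the members had another match in the genome of at least 95% identity over 100 bases.

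As a share of the 3 D-type cyclins per kilobase, Ccnd1 held 9.76%, 17.6% and 4.36% in EtOH replicates 1, 2 and 3 and 17.8%, 37.1% and 16.4% in the TAM replicates, where the ranges overlap. Ccnd2 held 58.4%, 33.7% and 66.3% in EtOH and 53.1%, 42.7% and 50.5% in TAM. For Ccnd3 the shares were 31.8%, 48.8% and 29.3% in EtOH and 29.1%, 20.2% and 33.1% in TAM. In EtOH replicate 2 Ccnd3 was the largest of the 3 per kilobase of exon, whereas per kilobase of coding sequence Ccnd2 was, with 52.3% against 29.7%. Their summed level per kilobase was 1831, 1415 and 1924 normalized counts in EtOH and 2143, 4195 and 2347 in TAM, each TAM library above each EtOH library. The INK4 sum overlapped between the groups, running from 1172 to 1672 normalized counts per kilobase in EtOH and from 747 to 1263 in TAM.

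**Figure D4:**
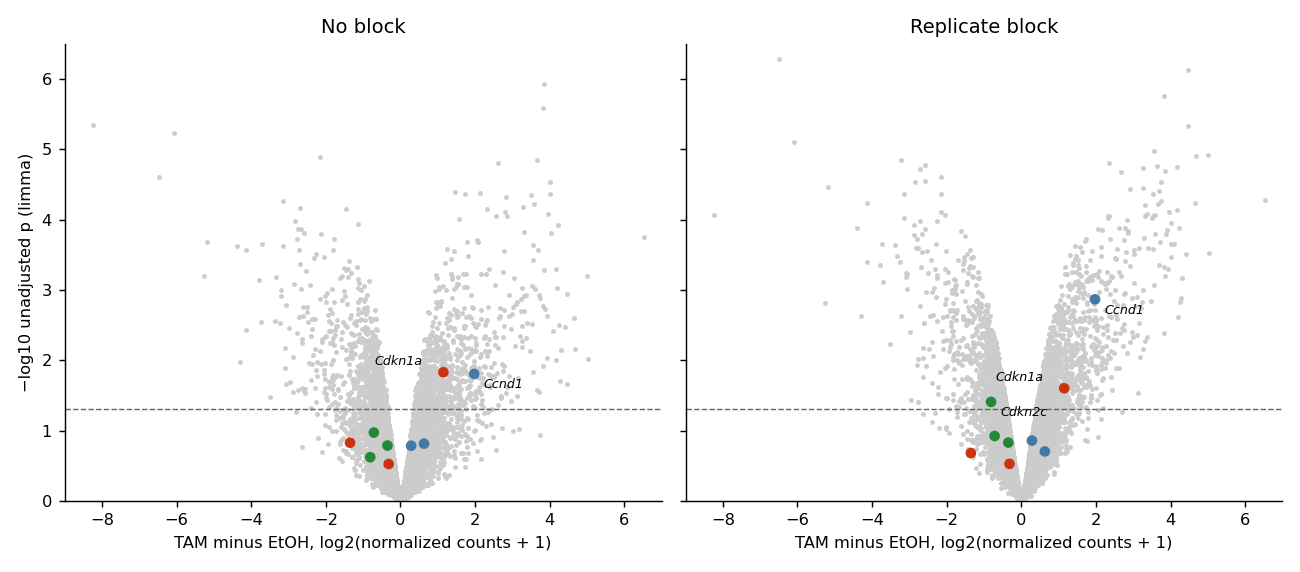
Log2 difference against −log10 of the unadjusted limma p for the 11877 genes tested (grey) and the 9 members (red for CIP/KIP, green for INK4, blue for D-type cyclins), without (left) and with (right) the replicate block, and a dashed line at the height of 0.05. On the left 2 members, Cdkn1a and Ccnd1, lie above the line, and on the right Cdkn2c joins them.

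Across the whole set, the mean level per kilobase of exon in EtOH ran from Cdkn1a (1325 ± 480 normalized counts per kilobase, SD, n = 3, here and below) through Cdkn2b (1085 ± 209), Ccnd2 (941 ± 415), Ccnd3 (612 ± 68.0) and Cdkn1b (465 ± 188) to Ccnd1 (170.5 ± 82.9), Cdkn2c (159 ± 74.8), Cdkn1c (133 ± 131), Cdkn2a (99.2 ± 21.8) and Cdkn2d (5.60 ± 3.63). Neighbours in this order overlapped except at 2 steps, from Cdkn1b to Ccnd1 and from Cdkn2a to Cdkn2d. In TAM the order was Cdkn1a (2873 ± 813), Ccnd2 (1372 ± 365), Cdkn2b (854 ± 178), Ccnd1 (774 ± 677), Ccnd3 (749 ± 114), Cdkn1b (355 ± 19.9), Cdkn2c (101 ± 62.3), Cdkn2a (63.0 ± 25.0), Cdkn1c (46.8 ± 31.3) and Cdkn2d (2.502 ± 0.871). There the steps without overlap were 5, from Cdkn1a to Ccnd2, from Ccnd2 to Cdkn2b, from Ccnd3 to Cdkn1b, from Cdkn1b to Cdkn2c and from Cdkn1c to Cdkn2d. Cdkn1a was thus first in both groups, although with coding length Ccnd2 came before it in EtOH. The place of Ccnd1 in TAM, 4, rested on TAM replicate 2, since its levels per kilobase were 382, 1555 and 385 in the TAM replicates against 624, 848 and 776 for Ccnd3, and it was 5 with the longest transcript as the length. In bulk RNA fewer cells with a transcript and less transcript per cell cannot be told apart.

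Genes that work with these inhibitors and cyclins were described from lists compiled by hand, and none of their members was called with or without the block. Among CDKs and cyclins of G1 and S, 10 of 11 listed genes were tested, with a median log2 difference of −0.15 beside −0.03 over all genes tested. Cdk6 and Cdk4, the catalytic partners of the D-type cyclins, differed in opposite directions. Cdk6 had 342, 184 and 183 normalized counts in EtOH replicates 1, 2 and 3 and 635, 496 and 400.4 in the TAM replicates, all TAM values above EtOH (log2 difference 1.15, standard error 0.31, limma adjusted p = 0.203). Cdk4 had 4689, 4530.3 and 5214 in EtOH and 2399, 3660 and 3412 in TAM, all TAM values below EtOH (log2 difference −0.63, standard error 0.21, limma adjusted p = 0.272). The ratio of Cdk6 to Cdk4 normalized counts, a description of the same values, was 0.0729, 0.0406 and 0.0351 in EtOH and 0.264, 0.136 and 0.117 in TAM. Cdk2, the main target of the CIP/KIP proteins, differed by −0.63 (limma adjusted p = 0.447).

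In the list of Rb pocket proteins and E2F factors, 12 of 13 genes were tested, with a median of −0.24 and 4 positive values. E2f6, a repressor of the family, had the smallest p of the list, with a log2 difference of 0.82 (limma adjusted p = 0.367), followed by E2f5 at −0.50 (adjusted p = 0.408) and Tfdp2, a partner of E2F, at −0.62 (adjusted p = 0.455). Genes of p27 transcription and turnover had a median of 0.03 over 11 genes. Of these Cks1b, which helps the ubiquitin ligase of Skp2 to bind p27Kip1, was lower in all 3 TAM libraries, with 469, 390 and 455 normalized counts in EtOH and 175, 371 and 211 in TAM (log2 difference −0.86, limma adjusted p = 0.283). Foxo1 differed by −0.87 (limma adjusted p = 0.408) and Ubac1, a part of a second p27 ligase, by 0.32 (adjusted p = 0.593).

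Mdm2, which is induced by p53 and marks it for degradation, differed by 0.59 (limma adjusted p = 0.396), Mdm4 by −0.36 (adjusted p = 0.658) and Trp53 itself by −0.01 (adjusted p = 0.984). Of 8 repressors of the Ink4 locus, with a median of −0.18, Ezh2 had 250, 402 and 271 normalized counts in EtOH and 187, 228 and 206 in TAM, with no overlap and a log2 difference of −0.54 (limma adjusted p = 0.385). Cbx7 differed by −1.15 (adjusted p = 0.528) and Ring1 by −0.26 (adjusted p = 0.605). The 14 proliferation markers had a median of −0.02, with 6 positive, and the smallest p was that of Tyms at 0.39 (limma adjusted p = 0.510), before Mcm5 at −0.90 (adjusted p = 0.759) and Mcm2 at −0.42 (adjusted p = 0.784). In each list at most 1 gene had all TAM libraries above EtOH and at most 1 all below. Of all genes tested, 9.19% lay above and 11.4% below in this way.

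**Figure D5:**
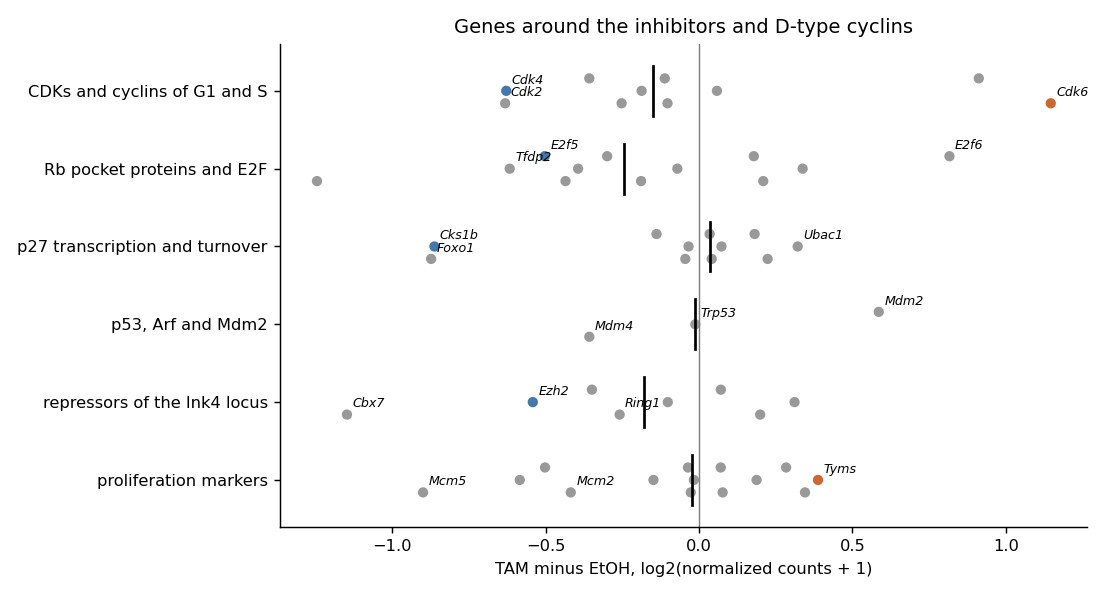
Log2 difference, TAM minus EtOH on log2(normalized counts + 1), of each tested gene in 6 lists, with black bars at the list medians, orange for genes with all TAM libraries above EtOH, blue for all below and grey for overlap. The medians lie between −0.24 and 0.03, and Cdk6 at 1.15 and Cdk4 at −0.63 stand on opposite sides of 0.

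The genes whose log2 values across the 6 libraries were most like those of Cdkn1b were Mllt3 (Pearson r = 0.996), Slc22a15 (0.995) and Ing2 (0.995). Cdkn1a was most like Mfge8 (Pearson r = 0.991), Rasa3 (0.990) and Psrc1 (0.985). Each r is over 6 libraries that share their scaling and their groups, was picked as the highest over all genes tested, and is given as a description.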

How the data were processed

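RNA of 6 MSF samples was measured, 3 labelled EtOH and 3 labelled TAM. The authors aligned reads to mm9 by TopHat, assigned them to RefSeq genes by htseq-count and tested with edgeR after TMM scaling, and tool versions are not given in the sources used here. The signal the authors deposited is 1 table of normalized counts, of which 99.1% of the values above 0 are not whole, and the scaling is not stated, so values were not treated as read counts.

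Values were compared as log2(normalized counts + 1) with limma 3.58.1 in R 4.3.3, with a trend on intensity. Genes were kept at a minimum of 1 c.p.m. (16.2 normalized counts, from the mean library sum) in 3 or more of 6 libraries, with Benjamini-Hochberg adjustment over all 11877 genes tested. Whether replicate numbers pair the libraries was checked by correlating deviations from group means over genes. Same-numbered libraries gave r of 0.24, 0.29 and 0.42 and other pairs −0.31 to 0.04, so a fit with the replicate block is given too. The pairing comes from the numbers in the labels.

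Exon lengths, overlaps and matches by BLAST (95% identity over 100 bases) are from the mm9 annotation and genome. The annotation is not the RefSeq set on which reads were counted. For Cdkn1a the deposited coordinates end at 29236472 and the annotation at 29237667, and Cdkn2a and Cdkn2c differ too. Levels per kilobase are thus approximate. Promoters are from RefSeq. The model was tested on simulated data. Alternatives were other scalings, filters, pseudocounts and lengths, library weights, the block, and leaving out each library. Python 3.11.15 was used with pandas 2.3.3, and plots are from matplotlib 3.10.9.

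The members and the gene lists were chosen with earlier results of these data known. Named were all members, up to 3 genes of each list with the smallest p, and the 3 genes most like Cdkn1b and like the member with the smallest p.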

Additional observations from a re-analysis of the deposited data

How the results depend on the processing

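With the replicate block, no filter or at least 10 in every library the log2 difference is the same, so its sign could not change. In 135 comparisons of members with the main result over 15 planned settings, these included, no log2 difference changed sign and 1 passed the threshold. That was Cdkn1a with library weights, at 1.54 (limma adjusted p = 0.0297). This made 1 member called among 742 genes (6.25% of those tested) and 3 genes called in the pathway lists. Genes tested in these lists were 10 for G1 and S, 12 for Rb and E2F, 11 for p27 and 3 for p53. There were 8 Ink4 repressors, 14 proliferation markers and 2 ROSA26 neighbours. Over the planned settings limma adjusted p-values ran from 0.0297 to 0.596 for Cdkn1a and from 0.0512 to 0.611 for Ccnd1. Lower limma adjusted p-values, 0.000947 for Cdkn1a and 0.000425 for Ccnd1, came from the block with library weights. That fit was added after seeing the data and called 36.3% of all genes tested. The count of all genes called, 29, was 48 with no filter, 18 with at least 10 in every library, 192 with the replicate block, and between 0 and 15 when leaving out 1 library. No member was called in any of the 6 fits that left out 1 library, of which those without EtOH replicate 1, EtOH replicate 3 or TAM replicate 1 called 0 genes (limma), with 1386, 961 and 1117 at an unadjusted p under 0.05.

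The replicate block changed no call of a member (0 without and with it) or of a pathway list. Of the settings added after seeing the data, the block with median-ratio scaling called 174 genes. The block without the pair of replicate 2 called 924 genes, 7.78% of those tested. Among them were 2 members, Cdkn1a and Ccnd1, and 3 genes of the pathway lists. That fit turned Cdkn1b to 0.0330, Cdkn1c to 0.15 and Ccnd2 to −0.00886. The block with library weights called 4312 genes, 36.3% of those tested, 3 members (Cdkn1a, Ccnd1 and Ccnd3) and 30 genes of the lists, and it turned Cdkn1c to 0.0425, Cdkn2b to 0.00113 and Ccnd2 to −0.0230. One weight estimate stopped before it converged. The cause of these changes was not tested.

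Scaling by library size alone moved the median log2 difference of all genes from −0.03 to 0.08 and the positive ones from 5487 to 6906. Without the filter the unadjusted p of Ccnd1 was no longer under 0.05. With coding length in place of exon length Ccnd2 came to rank 1 in EtOH and Ccnd1 to rank 3 in TAM, and mean shares were 61.4% in EtOH and 82.0% in TAM for Cdkn1a. Without division by length those of Ccnd3 were 20.1% in EtOH and 14.4% in TAM, against 36.6% and 27.5% with exon length. Read counts could not be recovered from the table, so the count tests planned for that case were not run. Read depth is not given, and values of a few normalized counts, such as those of Cdkn2d, have unknown counting error.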
